A study of Mus musculus with 15 samples.

Results

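The genes that encode the proteins of the cytosolic ribosome were examined in ileum RNA of 15 mice, of which 5 received water, 5 low molecular weight PAC and 5 high molecular weight PAC. PAC are proanthocyanidins, plant polymers of flavan-3-ol units that differ in length. Genes were taken by the symbol of a large subunit, small subunit or stalk protein, without ribosomal S6 kinases, a binding protein and pseudogenes, and with a mean FPKM of at least 1 over the 15 mice. FPKM are the fragments of a gene per kilobase of its length and relative to the depth of the library. Of the 17752 genes listed, 85 matched by symbol and 82 passed the minimum, among them 77 core genes (31 of the small subunit, 43 of the large subunit and the 3 stalk genes Rplp0, Rplp1 and Rplp2) and 5 paralogs or copies that were set apart, namely Rpl36al, Rps27l, Rpl22l1, Rpl7l1 and Rpl37rt. The lowest mean inside the minimum was that of Rpl37rt (3.53 FPKM), and the means outside it were 0.143 FPKM for Rpl32l, 0.0120 for Rpl3l and 0.0107 for Rpl39l.

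All mice were female, C57BL/6 by the labels (C57BL/6JOlaHsd in the study's methods), 8 weeks of age by the labels, kept on 1 purified diet and dosed by gavage every 2 days for 10 days. The water mice (water) received the vehicle alone, and the other mice received 200 mg/kg of a grape PAC fraction of lower (low PAC) or higher (high PAC) polymer length, which the labels call low and high molecular weight PAC. The study's text calls the longer fraction medium mDP, for its mean degree of polymerization. It gives younger ages, before acclimatization in its methods and with no time point in its reporting summary. Each library was 1 mouse, so replicates are separate animals, and the labels name the tissue only as intestinal where the study's methods give ileum. Fabp6 and Slc10a2, which carry bile acids through the cells of the distal small intestine, were listed in all 15 mice at 4196 to 10619.9 FPKM and 94.8 to 350.1 FPKM. Between 15963086 and 17903886 expected counts were listed per mouse, and the core genes held mean counts of 1318 (Rpl36) to 17565 (Rpl4).

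A ribosome is built from a small subunit, which reads the mRNA, and a large subunit, which joins the amino acids, and the stalk on the large subunit calls in the elongation factors. Its proteins are needed in equal numbers, and most of them are present as 1 copy per ribosome. Their mRNAs are abundant and usually begin with a C followed by a run of pyrimidines, the TOP motif (terminal oligopyrimidine), through which mTOR signalling and the binding protein Larp1 control their translation and stability. In the gut the need for ribosomes is large in dividing crypt cells and in secretory cells, and dividing lymphocytes are also rich in these mRNAs.

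The bases around the annotated transcription start are shown for the core genes of highest and lowest level in each class and for the genes set apart, since the TOP motif is a feature that the choice by symbol did not use. The windows (RefSeq, GRCm38.p6) run 5′ to 3′ over 15 bases before the start and 15 bases from the start on, and capitals mark the longest run of C and T in the window.
Rps26, chr10:128626492-128626521, minus strand: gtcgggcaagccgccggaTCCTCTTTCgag
Rps27, chr3:90213634-90213663, minus strand: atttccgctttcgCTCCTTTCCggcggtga
Rps15a, chr7:118116133-118116162, minus strand: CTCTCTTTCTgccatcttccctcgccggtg
Rpl41, chr10:128549154-128549183, minus strand: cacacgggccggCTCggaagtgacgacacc
Rpl35, chr2:39005117-39005146, minus strand: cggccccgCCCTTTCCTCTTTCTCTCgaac
Rpl22, chr4:152325711-152325740, plus strand: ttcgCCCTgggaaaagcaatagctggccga
Rplp0, chr5:115559452-115559481, plus strand: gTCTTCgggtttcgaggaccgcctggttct
Rplp2, chr7:141447636-141447665, plus strand: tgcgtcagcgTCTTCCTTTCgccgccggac
Rpl36al, chr12:69184053-69184082, minus strand: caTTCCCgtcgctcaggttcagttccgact
Rps27l, chr9:66946071-66946100, plus strand: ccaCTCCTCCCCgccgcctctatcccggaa
Rpl22l1, chr3:28805493-28805522, plus strand: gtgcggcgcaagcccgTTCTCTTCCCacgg
Rpl7l1, chr17:46782642-46782671, minus strand: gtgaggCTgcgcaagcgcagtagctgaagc
Rpl37rt, chr5:115110254-115110283, minus strand: gTCTTCaggccagagcccgcacccagcagt

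Rps27, Rpl35 and Rplp2 had runs of 9, 18 and 10 pyrimidines that began within 7 bases before the annotated start and crossed it. Rps15a likewise had a run of 9 pyrimidines over the first transcribed base, beside its longest run (10 bases) further upstream. The runs of Rps26 (9 bases) and Rpl22l1 (10 bases) began downstream of the annotated start, and Rpl41 (3 bases), Rpl22 (4 bases) and Rpl7l1 (2 bases) had short runs in this window. Rpl22 and Rps27l also had another annotated start, not shown, where the longest runs were 5 and 4 pyrimidines. A run of at least 8 pyrimidines within 25 bases of an annotated start was found for 30 of the 57 core genes with a RefSeq window (52.6%), for 2 of the 5 genes set apart and for 22.8% of the 14035 genes of the series with a window. Over the whole window of 300 bases (250 before and 50 after the start, both strands), TTCCGG, the core of sites of the ETS family, was present in 56.1% of the core genes and 24.8% of all genes, and AAGATGG, a core of YY1 sites, in 15.8% and 7.48%. GGGCGG, the core of Sp1 family sites, was present in 61.4% and 59.1%. Such matches describe letters in these windows and are not measured binding sites.

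Core mRNAs were among the most abundant of the tissue. Their mean level had a median of 504 FPKM, 20 of the 77 were among the 100 genes of highest mean FPKM, and the highest of them ranked 31 among all genes. By class the median of the mean levels was 539 FPKM for the small subunit (34.5 to 1679), 469 for the large subunit (85.0 to 1543) and 607 for the stalk (464 to 711). The highest level was that of Rps26 (chr10:128624534-128626747, minus strand), a small subunit protein at the mRNA exit, with 1709, 1462, 1423, 1456 and 1451 FPKM in the water mice. For Rps26 the low PAC mice were at 1495, 1627, 1524, 2388 and 1483 FPKM and the high PAC mice at 1830.1, 1548, 2695, 1555 and 1537 FPKM. Next was Rpl41 (chr10:128548114-128549305, minus strand), a very short protein of the large subunit, with 1540.2, 1344, 1304, 1400.5 and 1492 FPKM in the water mice. For Rpl41 the low PAC mice were at 1331, 1533, 1479, 1805 and 1270.2 FPKM and the high PAC mice at 1574, 1398, 2734, 1389.5 and 1549 FPKM. In both genes high PAC replicate 3 was above every other mouse, and low PAC replicate 4 was the next highest.

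Rps27, a zinc-binding protein of the small subunit, followed with 1232, 1112, 1163, 1069 and 1312 FPKM in the water mice. For Rps27 the low PAC mice were at 1125, 1096, 1149, 1122 and 1147 FPKM and the high PAC mice at 1521, 1118, 2396, 1111 and 1135 FPKM. Rpl35, of the large subunit near the tunnel exit, had 991, 896, 874, 890.4 and 983 FPKM in the water mice. For Rpl35 the low PAC mice were at 851, 978, 922, 1399 and 945 FPKM and the high PAC mice at 1099, 1000.1, 1756, 902 and 967 FPKM. High PAC replicate 3 was again the highest mouse in both, and the groups overlapped. The lowest core levels per length (FPKM) were those of Rps15a (34.5 FPKM, chr7:118104372-118116188, minus strand), Rps20 (70.8 FPKM) and Rpl22 (85.0 FPKM; chr4:152325742-152334071, plus strand), whose listed lengths of 5158, 3446 and 2203 bases compare with a median of 730 bases for the core genes. In expected counts, which are not divided by length, Rps15a (mean 3048) and Rpl22 (3132) stood above Rpl36 (1318), and all were below the core median of 5622. The measured part of a gene's length was not examined, and reads of the many processed pseudogenes of this family can be counted with the parent gene, so levels between genes are uncertain.

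The core genes together held between 2.44 and 3.12% of all expected counts in 14 of the 15 mice. The share was 2.83, 2.46, 2.56, 2.48 and 2.76% in the water mice (mean 2.62% ± 0.168, SD, n = 5), 2.44, 2.64, 2.54, 3.12 and 2.59% in the low PAC mice (2.67% ± 0.263) and 3.05, 2.75, 5.00, 2.49 and 2.68% in the high PAC mice (3.19% ± 1.03). High PAC replicate 3 held 1.91 times the median share of the other 14 mice, and the groups overlapped. Without it the high PAC mean was 2.74% ± 0.231 (n = 4), close to the low PAC mean and less than 1 SD above the water mean. In bulk tissue a share of this kind cannot tell apart more cells rich in these mRNAs and more of these mRNAs per cell.

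**Figure D1:**
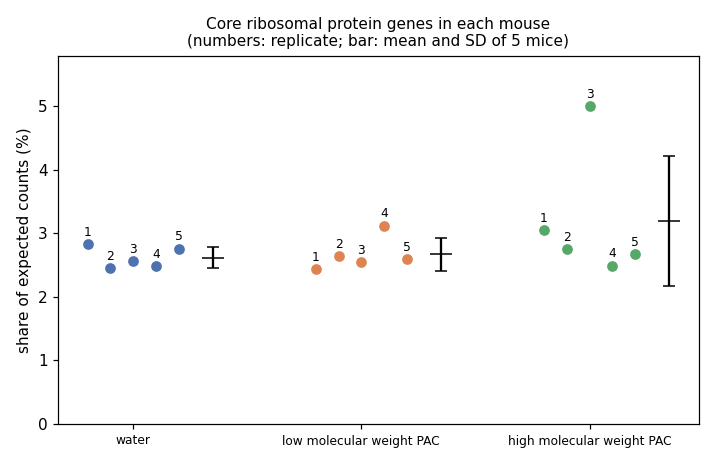
Share of each mouse's expected counts (%, y axis) held by the 77 core ribosomal protein genes, 1 point per mouse with its replicate number, and the mean with its SD for each group of 5. High PAC replicate 3 (5.00%) stands above the other 14 mice, which lie between 2.44 and 3.12%.

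To ask whether the longer PAC fraction changed these mRNAs, high PAC was compared with water in a model of all genes. No core gene passed the adjusted p of 0.05 (edgeR, 0 of 77, against 0.0139% of the 14386 genes tested), and 0 passed an unadjusted p of 0.05 (14.8% of the genes tested, 4.37% higher). The log2 fold change was above 0 in all 77 core genes, between 0.05 (Rpl29) and 0.36 (Rpl39) with a median of 0.20, against 50.5% above 0 and a median of 0.0024 over all genes tested. The 77 estimates rest on the same 10 mice and are not independent of each other. Without high PAC replicate 3 the median was 0.02, 52 of 77 were above 0 (53.9% of the genes tested) and again 0 passed the adjusted p (0.0208%) or an unadjusted p of 0.05 (10.9%), so most of the shift was lost without that mouse.

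The core genes with the smallest p were Rpl22, Rpl39, Rpl37a and Rps27a. Rpl22, a large subunit protein that most cells can do without, had 75.7, 68.9, 76.5, 68.9 and 80.8 FPKM in the water mice. For Rpl22 the low PAC mice were at 73.6, 80.9, 72.7, 89.3 and 84.1 FPKM and the high PAC mice at 96.1, 83.9, 169, 75.0 and 79.9 FPKM. High PAC replicates 1, 2 and 3 were above every water mouse, and the log2 fold change was 0.34 ± 0.17 (SE, adjusted p = 0.358), with a 95% interval of -0.02 to 0.70 and an exact permutation p of 0.0556. Without high PAC replicate 3 it was 0.12.

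Rpl39 (chrX:37082520-37085402, minus strand), a small protein that lines the tunnel through which the new chain leaves, had 256, 236, 269, 234 and 268 FPKM in the water mice. For Rpl39 the low PAC mice were at 241, 274, 219, 274 and 271 FPKM and the high PAC mice at 308, 275, 644, 254 and 258 FPKM. The log2 fold change was 0.36 ± 0.20 (SE, adjusted p = 0.407), with an interval of -0.07 to 0.78, and 0.06 without high PAC replicate 3. Rpl37a, a zinc-binding protein of the large subunit, and Rps27a, which is made as a fusion with ubiquitin, had log2 fold changes of 0.31 ± 0.18 (SE, adjusted p = 0.414) and 0.35 ± 0.20 (SE, adjusted p = 0.415), which were 0.08 and 0.06 without that mouse. The high and water groups overlapped in each of these 4 genes.

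The smallest estimates were those of Rpl29 and Rpl28. Rpl28 (chr7:4792874-4795066, plus strand), a large subunit protein found in eukaryotes, had 1029, 779, 808, 852 and 940.1 FPKM in the water mice. For Rpl28 the low PAC mice were at 799, 915, 926, 1225 and 778 FPKM and the high PAC mice at 893, 881, 1336, 842 and 966 FPKM. Its log2 fold change was 0.06 ± 0.14 (SE, adjusted p = 0.87), with an interval of -0.25 to 0.36, and its high PAC replicate 3 was the highest of the 15 mice. That of Rpl29, also of the large subunit, was 0.05 ± 0.15 (SE, adjusted p = 0.884). Without high PAC replicate 3 the estimates of Rpl29 and Rpl28 were -0.05 and -0.03.

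**Figure D2:**
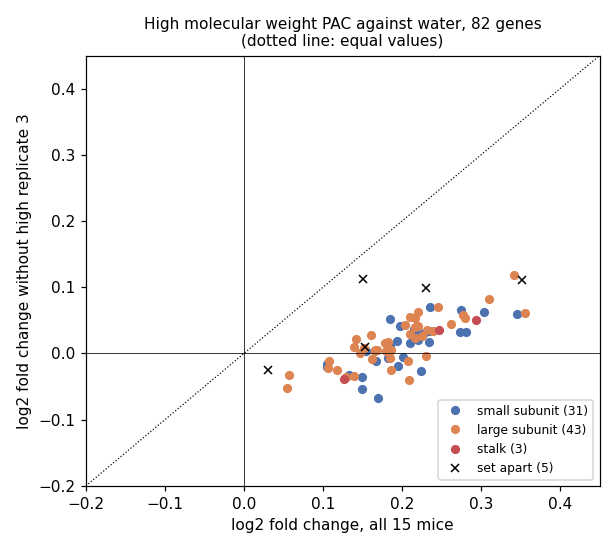
Log2 fold change of high PAC against water for the 82 genes, with all 15 mice (x axis) and without high PAC replicate 3 (y axis). Points are genes, coloured by class, and the dotted line marks equal values. On the x axis all 82 genes are above 0, and on the y axis the core genes lie between -0.07 and 0.12.

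Genes of the 3 classes gave like values. The medians of the log2 fold changes were 0.21 for the small subunit (31 genes), 0.19 for the large subunit (43 genes) and 0.25 for the stalk (3 genes), and 0.02, 0.02 and 0.04 without high PAC replicate 3. Rplp0 (chr5:115559467-115563727, plus strand), the base of the stalk, had 737, 634, 648, 647 and 713 FPKM in the water mice. For Rplp0 the low PAC mice were at 606, 693, 633, 761 and 633 FPKM and the high PAC mice at 747, 689.8, 1222, 637 and 664 FPKM. Its partner Rplp1 (chr9:61913284-61914542, minus strand) had 611, 518, 539.8, 509.6 and 572 FPKM in the water mice. For Rplp1 the low PAC mice were at 506, 569, 524, 578 and 552 FPKM and the high PAC mice at 654, 605, 1255, 539 and 569.9 FPKM. Rplp2 (chr7:141447370-141451585, plus strand), which pairs with Rplp1, had 475, 372, 479, 355 and 438 FPKM in the water mice. For Rplp2 the low PAC mice were at 374, 420.0, 390.0, 502 and 455 FPKM and the high PAC mice at 490.0, 465, 899.6, 401 and 451 FPKM. In all 3 genes high PAC replicate 3 was far above the other 14 mice and the remaining high PAC mice overlapped the water mice. The fits were 0.13 ± 0.15 (SE, adjusted p = 0.687) for Rplp0, 0.29 ± 0.18 (SE, adjusted p = 0.434) for Rplp1 and 0.25 ± 0.18 (SE, adjusted p = 0.509) for Rplp2.

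Counted gene by gene, the number of high PAC mice above every water mouse was 1 in 8 core genes, 2 in 42, 3 in 26 and 4 in 1, and never 5. The groups therefore overlapped in all 77 core genes, while 4.64% of the genes tested had groups that did not overlap.

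Low PAC was compared with water in the same way, and no difference was detected. By edgeR, 0 of 77 core genes passed the adjusted p (0.0% of the genes tested) and 0 an unadjusted p of 0.05 (3.61% of the genes tested, 1.4% higher). The median log2 fold change was -0.04, with 18 of 77 above 0 (45.5% of the genes tested, whose median was -0.01), and the median was 0.02 with library totals and 0.01 on log2(FPKM + 0.1), so its sign depended on the scaling. Without high PAC replicate 3 in the fit, 30 of 77 were above 0 (52.7% of the genes tested), and 0 passed an unadjusted p of 0.05 (5.11%, 2.39% higher). The spread behind the SE and intervals was estimated from all 15 mice, including high PAC replicate 3. Without that mouse the smallest unadjusted edgeR p of a core gene was 0.0637, against 0.3585 with it. The largest estimates on either side were those of Rps26, 0.13 ± 0.16 (SE, adjusted p = 0.976), and Rps29, -0.15 ± 0.17 (SE, adjusted p = 0.976), and they were -0.01 and -0.08 without low PAC replicate 4. Rpl9 (chr5:65388364-65391444, minus strand), a large subunit protein, had the smallest p, with 388, 365, 384, 338 and 377 FPKM in the water mice. For Rpl9 the low PAC mice were at 361, 348, 321, 327 and 378 FPKM and the high PAC mice at 439, 390.0, 755, 357 and 382 FPKM. Its log2 fold change was -0.15 ± 0.16 (SE, adjusted p = 0.976), with an interval of -0.48 to 0.18, and 2 low PAC mice lay below every water mouse. That of Rpl37, a zinc-binding protein of the large subunit, was -0.12 ± 0.14 (SE, adjusted p = 0.976). Groups that did not overlap were found in 0 core genes (0.605% of the genes tested).

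The fractions of different polymer length were compared at the same dose and time. By edgeR 0 of 77 core genes passed the adjusted p (0.0% of the genes tested), and 5 of 77 were higher in high PAC at an unadjusted p of 0.05 (3.89% of the genes tested, 1.84% higher), namely Rpl9, Rpl11, Rpl30, Rpl35a and Rps15a, of which Rpl11, Rpl30 and Rpl35a are named after their values were seen. That count was 0 without low PAC replicate 3 (1.27% of the genes tested higher), 1 without high PAC replicate 3 (0.899% higher) and 30 without high PAC replicate 4 (2.83% higher). The log2 fold changes of these genes, high against low PAC, were 0.37, 0.34, 0.29, 0.35 and 0.38, each with an adjusted p of 0.896, and without high PAC replicate 3 they were 0.15, 0.12, 0.11, 0.11 and 0.12. For Rpl9 the 95% interval of the difference was 0.04 to 0.70 and 4 of 5 high PAC mice were above every low PAC mouse (unadjusted edgeR p = 0.0294, exact permutation p = 0.0238). Rpl11, which besides its place in the large subunit binds Mdm2, had 472, 413, 422, 426 and 468 FPKM in the water mice. For Rpl11 the low PAC mice were at 421, 452, 422, 408 and 406 FPKM and the high PAC mice at 519, 463, 897, 421 and 474 FPKM. Its groups also overlapped, with 4 of 5 high PAC mice above every low PAC mouse. Rps15a, of the small subunit, had 34.2, 30.0, 31.9, 28.2 and 32.3 FPKM in the water mice. For Rps15a the low PAC mice were at 28.8, 31.1, 28.1, 32.0 and 33.9 FPKM and the high PAC mice at 39.5, 34.7, 71.5, 30.7 and 31.1 FPKM, and 3 high PAC mice were above every low PAC mouse. The median over core genes was 0.25 with 77 of 77 above 0 (51.4% of the genes tested), and 0.04 with 55 of 77 above 0 (52.6%) and 1 gene, Rpl9, at an unadjusted p of 0.05 (1.83% of the genes tested, 0.899% higher) without high PAC replicate 3. Over the core genes the 95% intervals of this difference reached from -0.31 at the lowest bound to 0.83 at the highest. The 3 comparisons were made between the same groups of mice, and high against low shares its mice with each of the others.

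High PAC replicate 3 stood apart from the other mice in these genes. Its log2 CPM (TMM-normalised CPM with 0.5 added) exceeded the median of the other 14 mice by a median of 0.87 over the core genes, from 0.52 in Rpl28 to 1.23 in Rps27a. In FPKM it was above all other 14 mice in 77 of 77 core genes and in 4 of the 5 genes set apart, while this was the case for 27.8% of the genes tested. Its summed core FPKM was 74814, against 36182 to 45831 in the other 14 mice. The deviation was 0.89 for the small subunit, 0.84 for the large subunit and 0.96 for the stalk.

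Other genes of the same mouse differed by their length. Of the non-member genes tested, the 315 with a listed length of up to 700 bases exceeded the median of the other 14 mice by a median of 0.51, the 1938 of 700 to 1500 bases by 0.35 and the 7751 of 1500 to 4000 bases by 0.04, and the 4300 longer genes were below it, at -0.23. The core genes in the same classes of length had 0.92 (35 genes), 0.83 (34 genes), 0.87 (7 genes) and 1.10 (1 gene, Rps15a). The core median was above that of the other genes in each class of length. The 78 mitochondrial ribosomal protein genes had 0.49 and 80 respiratory chain genes 0.50. The FPKM summed over all genes was 677075 in this library and 502110 to 573980 in the others. RNA quality was not given in the sources used here, and its part in the result was not tested.

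**Figure D3:**
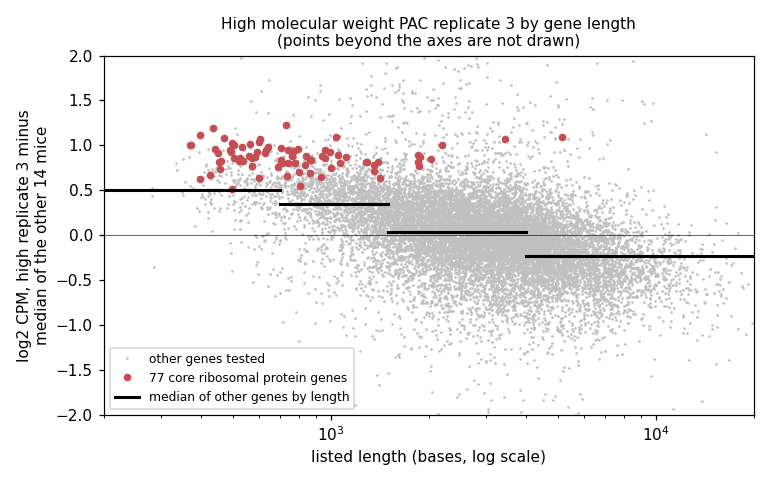
Log2 CPM of high PAC replicate 3 minus the median of the other 14 mice (y axis) against listed length in bases (x axis, log scale). Grey points are other genes tested, black bars their median in 4 classes of length (0.51, 0.35, 0.04 and -0.23), and red points the 77 core genes, which lie above the black bar of their class.

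Markers of cell types moved in this library too. The 3 B cell markers Ms4a1, Cd79a and Cd79b summed to 166 FPKM in high PAC replicate 3, to 162 in high PAC replicate 1 and to between 4.98 and 107 in the other 13 mice. The highest core share was 5.00% in high PAC replicate 3, then 3.12% in low PAC replicate 4 and 3.05% in high PAC replicate 1. The B cell sums of these mice were 166, 6.43 and 162 FPKM in the same order. The 5 crypt and cycling genes summed to 591 FPKM in high PAC replicate 3 and 303 to 434 in the other 14 mice, although only 3 of the 5 were above their median in those mice (log2 CPM differences of -0.17 to 0.75). There the 2 plasma cell markers summed to 663 FPKM and 249 to 502, and the 3 erythroid markers to 131 and 23.0 to 64.7. The 6 enterocyte genes summed to 7356 FPKM and 7057 to 10902, and 5 of them were below their median in the other mice (log2 CPM differences of -0.85 to 0.30, median -0.56). The 4 smooth muscle genes summed to 495 FPKM and 193 to 817, and all were below that median (-0.92 to -0.34, median -0.42). The 3 T cell markers summed to 22.8 FPKM and 6.71 to 20.6, and the 3 Paneth cell genes to 24116 and 8622 to 19277. The median log2 CPM differences were 0.73 for the T cell and 0.29 for the Paneth cell list. They were 1.24 for the plasma cell and 1.37 for the erythroid list. The 3 goblet cell genes summed to 5796 FPKM and 3429.6 to 4357 but went both ways, with log2 CPM differences of -0.62 to 0.80 and a median of 0.0066. The 3 germinal centre markers summed to 25.4 FPKM and 3.37 to 31.3, and all were above their median in the other mice by 0.41 to 4.61 (log2 CPM). Both mesothelium markers were below it, with a median difference of -1.37, and of the distal ileum genes Fabp6 was above (0.56) and Slc10a2 below (-0.92). What part these cell types had in the core values was not tested.

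The SD over the 15 mice of the median core log2(FPKM + 0.1) was 0.255, and 0.0965 without high PAC replicate 3. Around that median, single genes had an SD of the log2 ratio between 0.0305 (Rpl8) and 0.175 (Rpl36), with a median of 0.0759, and 56 of 77 were under 0.1. Over all genes tested the SD of the ratio to the same core median had a median of 0.310 and 0.605% were under 0.1. Without high PAC replicate 3 the medians were 0.0686 for the core genes, 59 of which were under 0.1, and 0.189 for all genes tested (5.67% under 0.1). The core genes set that median themselves and are abundant, so their closeness to it is a description. High PAC replicate 3 was the highest of its group in all 77 core genes, and high PAC replicate 4 the lowest in 65. In the water group replicates 1 and 5 were the highest in 48 and 26 core genes.

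**Figure D4:**
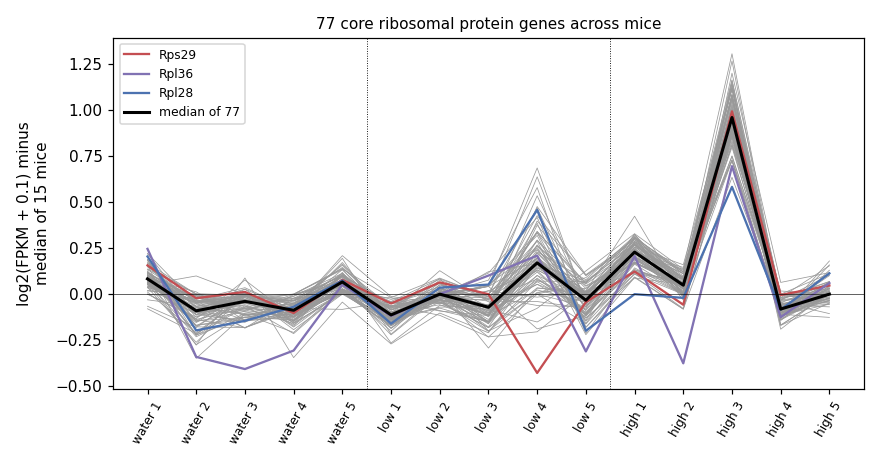
Log2(FPKM + 0.1) of each of the 77 core genes minus its median over the 15 mice (y axis), by mouse (x axis), with the median of the 77 in black. Rps29, Rpl36 and Rpl28 are coloured, and the lines fan out most at low PAC replicate 4, where Rps29 lies 0.61 below its usual ratio to the median.

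The genes that strayed most were Rpl36, Rps29 and Rpl29. Rpl36 (chr17:56613416-56614243, plus strand), of the large subunit, had 263, 175, 167, 179 and 229 FPKM in the water mice. For Rpl36 the low PAC mice were at 204, 221, 237, 256 and 179 FPKM and the high PAC mice at 255, 171, 358, 203 and 231 FPKM. The groups overlapped, and its log2 fold change of high PAC against water was 0.16 ± 0.17 (SE, adjusted p = 0.661). Rps29 (chr12:69157722-69159186, minus strand), a small zinc-binding protein of the small subunit, had 509, 449.9, 461, 425 and 482 FPKM in the water mice. For Rps29 the low PAC mice were at 441, 477, 457, 339.6 and 443 FPKM and the high PAC mice at 497, 439, 908, 455 and 472 FPKM. The value of low PAC replicate 4 was the lowest of the 15 mice, although that mouse held the highest core share of its group.

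Low PAC replicate 4 thus had an uneven pattern. It was the highest low PAC mouse in 63 of 77 core genes and the lowest in 3, and the SD over the core genes of its log2 ratios to the median, each relative to the gene's own median, was 0.193, against 0.0330 to 0.140 in the other mice. The ratio was lowest for Rps29 (-0.61). Rpl29 had 627, 527, 506, 562 and 587 FPKM in the water mice. For Rpl29 the low PAC mice were at 501, 563, 593, 839.9 and 497 FPKM and the high PAC mice at 600.3, 532, 873, 536 and 585 FPKM, with low PAC replicate 4 near high PAC replicate 3. Rpl28, Rpl35 and Rps26 were likewise high in both. This library also had the lowest total of the 15 (15963086 expected counts), and the part of depth was not tested.

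The 5 genes set apart were lower than their core partners. Rpl22l1 (chr3:28805436-28807424, plus strand), a paralog that can replace Rpl22, had 46.9, 55.1, 55.8, 43.4 and 52.9 FPKM in the water mice. For Rpl22l1 the low PAC mice were at 47.1, 53.8, 39.3, 36.1 and 50.02 FPKM and the high PAC mice at 54.1, 55.7, 119.9, 66.1 and 51.8 FPKM. It was higher in high than in low PAC at an unadjusted p only, with a log2 fold change of 0.56 ± 0.20 (SE, adjusted p = 0.896), a 95% interval of 0.15 to 0.98 and an edgeR p of 0.0114 before adjustment (exact permutation p = 0.0159). Of the high PAC mice 4 of 5 were above every low PAC mouse, and without high PAC replicate 3 the estimate was 0.30 (edgeR p before adjustment 0.0268, not an exact test). Rpl22l1 made up 40.6% ± 2.63 (SD, n = 5) of the FPKM of the pair Rpl22l1 and Rpl22 in the water mice, 36.0% ± 4.45 in the low PAC mice and 40.7% ± 3.96 in the high PAC mice. In high PAC replicate 3 it made up 41.5%, so both genes were higher there and their ratio was near that of the other mice, while the lowest share was 28.8% in low PAC replicate 4. Shares of FPKM rest on the listed lengths, here 481 bases for Rpl22l1 and 2203 for Rpl22. The mean expected counts of these genes were 382 and 3132.

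Rpl36al (chr12:69182731-69184083, minus strand), a near-identical paralog of Rpl36a, had 221, 209, 239, 200.1 and 216 FPKM in the water mice. For Rpl36al the low PAC mice were at 210.0, 223, 204, 274 and 228 FPKM and the high PAC mice at 258, 265, 400.1, 224 and 219 FPKM. High PAC replicates 1, 2 and 3 were above every water mouse. The fitted log2 difference was 0.23 ± 0.14 (SE, adjusted p = 0.422) and 0.10 without high PAC replicate 3. It held 34.7% of the FPKM of the pair Rpl36al and Rpl36a in high PAC replicate 3 and 37.0 to 41.2% in the other 14 mice. Rps27l (chr9:66946086-66949516, plus strand), a paralog of Rps27 that Trp53 induces, had 113, 128, 119, 112 and 101 FPKM in the water mice. For Rps27l the low PAC mice were at 119, 129, 107, 132 and 118 FPKM and the high PAC mice at 124, 118, 204, 122 and 115 FPKM. Its share of the pair Rps27l and Rps27 was 7.83% in high PAC replicate 3 and 7.16 to 10.5% in the others. Reads of such near-identical pairs can be divided wrongly between them.

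Rpl7l1 (chr17:46773907-46782672, minus strand), a relative of Rpl7 that acts in the making of the large subunit, had 15.3, 15.8, 16.4, 15.5 and 17.4 FPKM in the water mice. For Rpl7l1 the low PAC mice were at 16.4, 17.1, 17.0, 17.4 and 15.6 FPKM and the high PAC mice at 19.0, 18.3, 23.1, 17.8 and 17.1 FPKM. Here 4 of 5 high PAC mice were above every water mouse, the log2 fold change was 0.15 ± 0.07 (SE, adjusted p = 0.349) with an unadjusted edgeR p of 0.0544 and an exact permutation p of 0.0159, and it was 0.11 without high PAC replicate 3. Rpl37rt (chr5:115102923-115110268, minus strand), a retrocopy of Rpl37, had 2.59, 3.78, 3.79, 3.17 and 2.96 FPKM in the water mice. For Rpl37rt the low PAC mice were at 3.32, 2.48, 5.44, 4.82 and 2.80 FPKM and the high PAC mice at 2.99, 3.26, 4.47, 3.68 and 3.41 FPKM, with overlapping groups. Rpl7l1 held 1.72% of the FPKM of the pair Rpl7l1 and Rpl7 in high PAC replicate 3 and 2.17 to 2.84% in the other mice, and Rpl37rt 1.504% of that with Rpl37, at the low end of the other mice (1.503 to 3.47%). The smallest p that an exact permutation test of 5 against 5 mice can give is 0.0079, and these exact p-values of single genes were not adjusted. Those tests and the counts of mice above another group used FPKM without TMM scaling. On log2(FPKM + 0.1) the median log2 fold change of all genes tested, high PAC against water, was 0.0902 (limma). It was 0.0024 in the edgeR fit with TMM. The genes under the FPKM minimum gave no comparison, and Rpl39l was listed above 0 in 2 mice and Rpl3l in 3.

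Ribosomal genes outside the symbols gave like values. Fau, a fusion of a small subunit protein with a ubiquitin-like protein, and Rack1, a signalling scaffold on the small subunit, had mean levels of 617 and 433 FPKM. Their log2 fold changes of high PAC against water were 0.18 ± 0.15 (SE, adjusted p = 0.564) and 0.15 ± 0.14 (SE, adjusted p = 0.621), and 0.04 and -0.02 without high PAC replicate 3.

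Genes that share the TOP motif, that build ribosomes or that control them were counted from lists in the same fit. Of 17 other TOP mRNAs, which encode elongation factors and the like, 0 passed an unadjusted p of 0.05 in high PAC against water (14.8% of the genes tested), with a median of 0.10, which was 0.0012 without high PAC replicate 3. Of these, Hnrnpa1, an RNA-binding protein, and Nap1l1, a histone chaperone, had the smallest p, with log2 fold changes of 0.15 ± 0.08 (SE, adjusted p = 0.414) and 0.27 ± 0.16 (adjusted p = 0.418), and 0.11 and 0.13 without that mouse. Of 42 ribosome assembly genes 8 were higher at an unadjusted p of 0.05 (4.37% of the genes tested) and 0 lower, with a median of 0.14, and 6 were higher without high PAC replicate 3 (5.25%), with a median of 0.10. Ltv1, which helps to export the small subunit, was at 0.21 ± 0.08 (adjusted p = 0.261) and Wdr75, which acts in early processing of ribosomal RNA, at 0.24 ± 0.09 (adjusted p = 0.269), and both estimates were close to these without high PAC replicate 3 (0.20 and 0.19). No gene of these lists passed the adjusted p. In the same comparison 3 of 6 enterocyte genes were lower at an unadjusted p of 0.05 (10.4% of the genes tested), with a median of -0.34, and again 3 of 6 (5.62%) with a median of -0.19 without high PAC replicate 3. The 4 smooth muscle genes had a median of 0.42, and 0.55 without that mouse, and 0 of them passed. The crypt and cycling genes had a median of 0.19 with 5 of 5 above 0 (0.09, 4 of 5 and 1 past the unadjusted p without that mouse), the 2 mesothelium markers one of 1.03 (1.28 and 1 past it) and the 3 erythroid markers one of 0.63 (0.28). The medians of the distal ileum, Paneth, goblet, B, germinal centre, T and plasma cell lists were 0.21, 0.11, -0.14, 0.18, 0.02, -0.19 and -0.05 with none passing, and without that mouse 0.26, 0.07, -0.03, -0.33, -0.16, -0.38 and -0.44, with 1 of 2 plasma cell markers lower at the unadjusted p. The part of cell types in the assembly, mitochondrial and respiratory values was not tested.

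Of 16 genes of the mTOR and Larp1 pathway 1 was higher (4.37% of the genes tested) and 1 lower (10.4%) at an unadjusted p of 0.05, with a median of -0.03. When high PAC replicate 3 was left out, 1 was higher (5.25%) and 0 lower (5.62%), and the median turned to 0.02. Rheb, the GTPase that activates mTOR, had a log2 fold change of 0.21 ± 0.07 (adjusted p = 0.255), and Eif4ebp2, a repressor of translation that mTOR inactivates, one of -0.24 ± 0.09 (adjusted p = 0.271). Without that mouse Rheb was at 0.20, and Eif4ebp2 was at -0.13 and no longer passed the unadjusted threshold. Of 78 mitochondrial ribosomal protein genes 10 were higher at an unadjusted p of 0.05, and of 80 respiratory chain genes 10 (4.37% of the genes tested), with medians of 0.18 and 0.15. There were 7 and 5 such genes without that mouse (5.25% of the genes tested), with medians of 0.09 and 0.07. Among them Mrps33 (0.32 ± 0.11), Mrpl11 (0.29 ± 0.10), Ndufs3 (0.23 ± 0.09) and Ndufa7 (0.26 ± 0.11) had adjusted p-values of 0.237, 0.247, 0.273 and 0.290, and were at 0.24, 0.22, 0.17 and 0.20 without that mouse. The core median went from 0.20 to 0.02 when that mouse was left out, and those of the assembly, mitochondrial and respiratory lists from 0.14 to 0.10, from 0.18 to 0.09 and from 0.15 to 0.07.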

How the data were processed

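RNA of 1 ileum per mouse was sequenced as paired-end reads of 100 bases on a BGISEQ-500. Per the study's methods the reads were cleaned with SOAPnuke and aligned with Bowtie2 to mm10, and NOIseq was used for testing, while the submitters' processing notes list HISAT and DESeq2. The program behind the counts is not given in the sources used here. The authors deposited, for each mouse, an expected count and an FPKM value per gene with the gene's length, and a gene not listed in a mouse was taken as 0. Between 88.6 and 89.5% of a mouse's expected counts had no decimal part as deposited (an exact match, with no tolerance), and all were rounded to whole numbers before any count model.

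The members and gene lists were chosen with earlier results of these data known, and so were the promoter motifs. Counts of all 15 mice were fitted in 1 model with edgeR 4.0.16 (TMM, filterByExpr by group, quasi-likelihood test, R 4.3.3), with Benjamini-Hochberg adjustment over 14386 genes and a threshold of 0.05. In every value above, an adjusted p is from that fit unless another test is named, and log2 fold changes are given with their SE. For named genes, log2(FPKM + 0.1) was in addition permuted exactly between groups (two-sided). The scripts were tested on simulated data. Alternatives were DESeq2 1.42.0, limma 3.58.1 on log2(FPKM + 0.1) and log2(FPKM + 1), other normalizations, no filter, a replicate block and leaving out each mouse. Gene coordinates are those of GENCODE vM21 (GRCm38). Core genes were named where they had the 2 highest or the lowest mean FPKM of their class, the 4 smallest p or 3 lowest fold changes against water, or the 3 largest SD around the core median, as were the genes set apart and the 2 genes of smallest p of each related list. Rpl4, Rpl8 and Rps20 fall outside that rule. Single results of a few genes that the rule or the marker lists hold are not reported here, while counts and medians over the core genes include all 77. Figures were drawn with matplotlib 3.10.9.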

Additional observations from a re-analysis of the deposited data

Results flagged for a closer look

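In each group of 5 mice, a value was picked out where its gap to the nearest of the others, divided by the range of the group, was above 0.71 (Dixon's test), which chance does for about 1 in 20 groups. High PAC replicate 3 stood out in this way in 69 of the 77 core genes and in 9.52% of the genes tested. Its core share of 5.00% of the counts was picked out, and so were its FPKM of Rps26 (2695), Rps15a (71.5), Rpl41 (2734), Rpl35 (1756), Rpl22 (169), Rps29 (908) and Rpl29 (873). The stalk genes Rplp0, Rplp1 and Rplp2 were at 1222, 1255 and 899.6 FPKM in this mouse. Of the genes set apart, Rpl36al (400.1 FPKM), Rps27l (204 FPKM) and Rpl22l1 (119.9 FPKM) were picked out in the same mouse.

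Low PAC replicate 4 stood out in 14 core genes, in 3.49% of the genes tested and in the core share, at 3.12% of the counts. Rps26 (2388 FPKM), Rpl35 (1399 FPKM) and Rpl29 (839.9 FPKM) were above the other low PAC mice, and Rps29 (339.7 FPKM) was below them. In the water group Rps26 was picked out in replicate 1, at 1709 FPKM. The genes share their libraries, so these values are not independent of each other.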

How the results depend on the processing

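No core gene passed the adjusted p of 0.05 in any comparison under any alternative that was run. The counts at an unadjusted p of 0.05 did depend on the setting. Every core gene counted was higher, and the share of all genes tested that was higher at that p is given in parentheses. For high PAC against water, 0 core genes passed in the edgeR fit (4.37%), 1 with upper-quartile normalization (10.5%), 1 with RLE (6.21%), 1 without the filter on low counts (6.2%), 1 by DESeq2 (6.15%), 1 by limma on log2(FPKM + 0.1) (15.8%), 1 on log2(FPKM + 1) (15.7%) and 14 with library totals only (15.5%), a scaling that moved the median of all genes by 0.0966 on the log2 scale. Leaving out each mouse in turn gave 0 to 6, with 6 without high PAC replicate 4 (5.18%), 4 without replicate 5 (4.85%) and 1 without replicate 2 (3.85%). For high against low PAC, 5 passed in the edgeR fit (1.84%), 15 with upper-quartile normalization (3.54%), 18 with library totals (4.12%), 9 without the filter (2.28%), 16 by DESeq2 (2.29%), 3 by limma with either pseudocount (4.34 and 4.38%) and 0 with only the 2 groups compared (1.38%). With 1 mouse left out it was 0 without low PAC replicate 3 (1.27%) to 30 without high PAC replicate 4 (2.83%), with 20 without high PAC replicate 5 (3.29%) and 12 without replicate 2 (1.94%). The median of high against low PAC was 0.0403 (without high PAC replicate 3) to 0.32 with 1 mouse left out. The cause of these differences was not tested.

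Without high PAC replicate 3, estimates of high PAC against water turned to -0.0052 in Rps27, -0.0388 in Rplp0, -0.0516 in Rpl29, -0.0323 in Rpl28, -0.0539 in Rps29, -0.0084 in Rpl37, -0.0255 in Rpl37rt and -0.0195 in Rack1. Their highest values with 1 mouse left out were 0.28, 0.19, 0.11, 0.14, 0.21, 0.24, 0.11 and 0.21 in the same order. Rpl37rt was also at -0.0321 without water replicate 1 and -0.0169 without water replicate 5.

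With the replicate number as a block, 1 core gene passed an unadjusted p of 0.05 in high against low PAC (1.35%) and 0 in high PAC against water (3.91%), where the median was 0.17. Same-numbered mice did not all deviate together, with correlations of -0.22 to 0.43 for high PAC and water, -0.29 to 0.42 for low PAC and water and -0.30 to 0.03 for high and low PAC. The mean r of same-numbered mice was 0.136, 0.128 and -0.136, against -0.035, -0.032 and 0.035 for other numbers, and 3, 2 and 0 pairs were over 0.1. Not every pair was over 0.1 and the labels tie no number to a shared animal, litter or day, so the mice were not treated as paired.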
